A study of Mus musculus with 10 samples.

Results

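Transglutaminases are calcium-dependent enzymes that join glutamine and lysine side chains of proteins by isopeptide bonds that proteases do not cut. In the epidermis they weld structural proteins into the cornified envelope, the rigid shell under the membrane of the dead outer keratinocytes. Transglutaminase 1, the product of Tgm1, is anchored to the membrane and also attaches ceramides to envelope proteins, and its loss in humans causes lamellar ichthyosis. Transglutaminase 3 is made as a zymogen that proteolysis activates, and acts in upper epidermis and hair follicle, while transglutaminase 5 acts in the outer epidermal layers and its loss causes acral peeling skin. Transglutaminase 2 is found in many tissues, where it also works outside cells with fibronectin and integrins.

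The members are the 4 genes Tgm1, Tgm2, Tgm3 and Tgm5, read through every probe set annotated to 1 of them alone. These were 10 of the 45101 probe sets of the array, 1 for Tgm1, 6 for Tgm2, 2 for Tgm3 and 1 for Tgm5, and 0 probe sets were annotated to a member together with another gene. Transcript levels were measured with Affymetrix Mouse430_2 arrays in primary keratinocytes from mouse skin, with 5 arrays labelled Sgpp1+/+ (WT, numbered 1 to 5) and 5 labelled Sgpp1-/- (KO, numbered 8, 9, 10, 21 and 23). Sgpp1 encodes a phosphatase of the signalling lipid sphingosine-1-phosphate, and the series asks how it bears on keratinocyte differentiation. Both groups were grown for 3 to 4 days in EMEM with 0.05 mM calcium and 8% fetal calf serum, a low calcium medium of the kind used to hold keratinocytes in a basal state. The labels give no age of the mice, do not say whether the loss of Sgpp1 was limited to a cell type, and do not say whether the arrays stand for separate mice or cultures, so the tests see the spread between these arrays, which may be technical.

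Sgpp1 itself was not lower on the arrays labelled KO. On each of its 3 probe sets every KO array read above every WT array, with differences of 1.24, 1.15 and 0.51 (limma adjusted p over all probe sets 0.191, 0.156 and 0.198), so these values do not bear out the labels. The probe set that stands for it had a log2 signal of 7.67 ± 0.84 over the WT arrays and 8.82 ± 0.24 over the KO arrays (mean ± SD, n = 5 each; limma adjusted p = 0.102, and 0.0357 without WT 1). Which part of the gene was disrupted is not stated, so a probe set may lie outside it and check nothing, and WT and KO here mean the arrays labelled so. Array medians lay between 5.02 and 5.17 on the log2 scale. Most keratinocyte markers were high: their means over the 10 arrays ran from 5.85 to 12.76 with a median of 11.43, so the lowest was not far above the array medians. None of the 9 measured passed the test (median difference 0.22), and the brightest, the basal keratin gene Krt5, read 12.78 ± 0.06 in WT and 12.73 ± 0.10 in KO. Fibroblast markers were uneven: WT 3 had a mean over the 12 measured of 9.52, WT 4 of 9.21 and KO 23 of 8.16, while the other arrays lay between 6.31 and 7.37. Since the samples are bulk RNA, more cells of a type and more transcript per cell cannot be told apart.

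Tgm1, Tgm3 and Tgm5 have promoter sequences in the RefSeq table of build GRCm38.p6, shown here. No promoter of Tgm2 was available, so these 3 could not be compared with it. Each run is the 250 bases before the annotated start, written 5′ to 3′ on the gene's strand, with matches to 6 transcription factor motifs in capitals. Tgm1 lies on chromosome 14, and the other members on chromosome 2.

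Tgm1, chr14:55713493-55713742, minus strand: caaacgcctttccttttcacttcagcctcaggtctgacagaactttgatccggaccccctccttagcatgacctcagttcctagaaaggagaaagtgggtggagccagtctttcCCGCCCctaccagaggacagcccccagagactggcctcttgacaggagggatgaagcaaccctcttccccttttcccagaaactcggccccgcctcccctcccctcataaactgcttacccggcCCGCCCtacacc

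Tgm3, chr2:130012090-130012339, plus strand: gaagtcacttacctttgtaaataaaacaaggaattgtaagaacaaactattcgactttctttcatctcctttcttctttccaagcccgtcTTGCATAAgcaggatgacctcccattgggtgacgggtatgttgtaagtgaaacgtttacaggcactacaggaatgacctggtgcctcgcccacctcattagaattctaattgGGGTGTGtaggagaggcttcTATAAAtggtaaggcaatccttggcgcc

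Tgm5, chr2:121085842-121086091, minus strand: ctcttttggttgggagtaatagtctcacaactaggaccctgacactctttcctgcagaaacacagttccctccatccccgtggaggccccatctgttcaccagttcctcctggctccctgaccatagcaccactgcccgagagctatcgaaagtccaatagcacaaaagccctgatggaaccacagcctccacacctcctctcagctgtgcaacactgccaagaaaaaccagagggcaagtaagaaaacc

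The 6 motifs were searched on both strands. The upstream start of Tgm1 held 2 GC boxes, spelled GGGCGG, on the opposite strand, from base -136 to -131 and from -12 to -7 before the start, and a GC box occurs in 32.7% of the 32851 promoter windows of this length in the table. A second start of Tgm1, at chr14:55713089-55713338, held no match. The Tgm3 window held a TATA match, spelled TATAAA, from base -28 to -23, and 12.4% of all windows hold one. It also held a KLF match, spelled GGGTGTG, from -48 to -42, against 6.93% of windows. A C/EBP match, spelled TTGCNNAA, lay from -160 to -153, against 9.56% of windows. The Tgm5 window held none of the 6. The AP-1 motif, spelled TGANTCA, is held by 6.75% of windows and was in no window of these 3 genes. The same was so of the grainyhead motif, spelled AACNNGTT, which 3.64% hold. The 3 promoters thus shared no motif of this set, and a match is a string of letters, not a shown binding site.

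The 3 transglutaminase genes of the epidermis were higher in keratinocytes labelled KO, and Tgm2 was not. Tgm5 was 4.29-fold higher, Tgm3 3.22-fold and Tgm1 2.19-fold, each past the threshold of an adjusted p of 0.05 in limma, a linear model fitted to all genes at once. Among all 18193 genes tested, 2.3% were higher in KO by this rule and 0.346% lower, 2.65% in all. For Tgm1, Tgm3 and Tgm5 the lowest KO array exceeded the highest WT array, as it did for 3.36% of all genes, while 1.02% had every KO array below every WT array. By the size of the rise, Tgm5 was number 63, Tgm3 number 116 and Tgm1 number 230 among the 419 genes called higher.

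**Figure D1:**
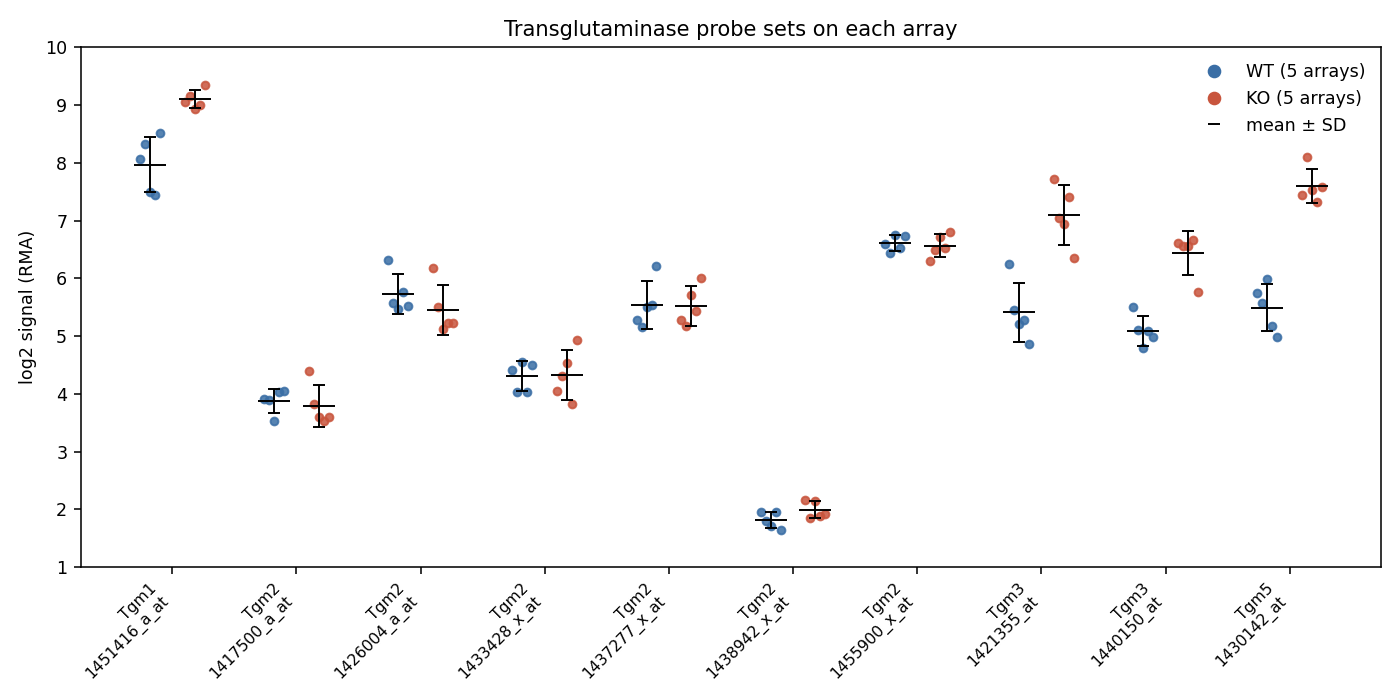
Log2 signal of the 10 transglutaminase probe sets on each of the 5 WT and 5 KO arrays, with points for arrays and black marks for mean ± SD. The KO points lie above every WT point for the Tgm1 probe set, both Tgm3 probe sets and the Tgm5 probe set, and overlap the WT points for the 6 Tgm2 probe sets. Levels of different probe sets are not comparable.

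Tgm1, the membrane-bound enzyme of the envelope, read 8.06, 8.33, 7.50, 7.45 and 8.51 on WT 1 to WT 5. On KO 8, KO 9, KO 10, KO 21 and KO 23 it read 9.06, 9.16, 8.94, 9.0 and 9.34 (log2 signal). The WT arrays were spread over more than a log2 unit while the KO arrays lay close together, and the highest WT value stood 0.43 below the lowest KO value. The means were 7.97 ± 0.48 in WT and 9.10 ± 0.16 in KO (SD, n = 5 each), a difference of 1.13 (SE 0.21, limma adjusted p = 0.0104 over all genes). The 2 lowest WT values were on WT 3 and WT 4, the WT arrays with the highest fibroblast markers, while KO 23, the KO array with the highest, had the highest Tgm1 value of all. Without WT 3, WT 4 and KO 23, a set chosen after these markers were seen, the difference was 0.74 and the limma adjusted p 0.0834, so the call was lost. Without each single array in turn the gene stayed past the threshold, with a limma adjusted p of at most 0.0386. Adjusted over all 45037 probe sets in place of genes, its p was 0.0190, and it was lost without WT 4 (limma adjusted p = 0.0544) and without KO 9 (0.0699).

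Tgm3, the zymogen enzyme of upper epidermis and hair, was read by 2 probe sets. On the brighter, 1421355_at, WT 1 to WT 5 read 6.25, 5.45, 5.21, 5.28 and 4.87, and the KO arrays in the order above read 7.73, 7.05, 6.94, 7.41 and 6.36. WT 1 was the highest of its group and KO 23 the lowest of its own, and only 0.12 separated them. The means were 5.41 ± 0.51 and 7.10 ± 0.52 (SD, n = 5 each), a difference of 1.69 (SE 0.28, limma adjusted p = 0.00506).

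The other Tgm3 probe set, 1440150_at, gave 5.51, 5.10, 4.80, 5.08 and 4.99 on WT 1 to WT 5 and 6.62, 6.57, 6.57, 6.67 and 5.77 on the KO arrays. Again WT 1 was the highest WT array and KO 23 the lowest KO array, with the other KO arrays nearly level. It was 2.54-fold higher in KO, a difference of 1.34 (SE 0.20, limma adjusted p over all probe sets = 0.00439). The 2 probe sets followed each other over the 10 arrays with a Pearson correlation of 0.97, a value that holds the difference between the groups and is given as a description. Hair follicle and inner root sheath markers, cells in which Tgm3 is also known, rose in 2 of 16 measured genes, Tchh and Gata3, where 2.3% of all genes rose. The list's mean ran from 4.28 to 4.71 on WT and from 4.48 to 4.70 on KO arrays. The inner root sheath keratin genes Krt25, Krt27, Krt28, Krt71, Krt72 and Krt73 read between 2.20 and 3.79 on average in both groups, which is in the range of genes of other tissues. Tchh, of the same list and also counted among the envelope genes below, read 7.80 ± 0.71 in WT and 10.03 ± 0.79 in KO (SD, n = 5 each). Its difference was 2.22 (limma adjusted p = 0.00773).

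Tgm5, encoding the transglutaminase of the outer epidermal layers, had the largest difference of the members. WT 1 to WT 5 read 5.75, 5.58, 5.99, 5.18 and 4.98, and the KO arrays read 7.44, 8.10, 7.53, 7.32 and 7.59. No array came near the other group: the gap between the highest WT and the lowest KO array was 1.33. The means were 5.49 ± 0.41 and 7.60 ± 0.30 (SD, n = 5 each), a difference of 2.10 (SE 0.21, limma adjusted p = 0.000231), and by p the gene was number 18 of all genes. Without WT 3, WT 4 and KO 23 the differences of Tgm5 and Tgm3 were 2.16 and 1.76, with limma adjusted p of 0.00185 and 0.0198.

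The WT levels of Tgm3 and Tgm5 were within the upper range of genes of other tissues. Of 23 measured genes of other tissues, such as liver, testis and pituitary, whose means over the arrays ran from 2.07 to 7.29, 4 read higher in WT than either gene did. RMA values near such levels compress differences, so the folds of Tgm3 and Tgm5 may be too small. For Tgm1, 0 of the 23 read higher in either group.

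Tgm2, the widely expressed transglutaminase, was the member with no difference past the threshold on any of its 6 probe sets. The brightest, 1455900_x_at, read 6.59, 6.43, 6.75, 6.53 and 6.74 on WT 1 to WT 5 and 6.31, 6.50, 6.72, 6.52 and 6.80 on the KO arrays. The groups overlapped almost fully. The means were 6.61 ± 0.14 and 6.57 ± 0.20 (SD, n = 5 each), a difference of -0.04 with a 95% interval of the limma fit from -0.33 to 0.25 (limma adjusted p = 0.958). A change of the size seen for Tgm1 lies outside that interval for this probe set, which may also bind other sequences.

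The 6 probe sets of Tgm2 did not follow one another. Over the 10 arrays the 15 pairs had Pearson correlations from -0.63 to 0.83 with a median of -0.17. The 2 that recognise several transcripts of the gene and carry a sequence accession in the annotation, 1417500_a_at and 1426004_a_at, correlated at 0.75 with each other and at -0.63 and -0.54 with the brightest. Their differences were -0.09 and -0.28 (limma adjusted p over all probe sets 0.958 and 0.819), with 95% intervals from -0.49 to 0.31 and from -0.77 to 0.21. On 1426004_a_at the 2 highest arrays were WT 1 at 6.31 and KO 8 at 6.18, against 5.12 to 5.77 on the rest. WT 1 and KO 8 also had the highest mean poly-A spike-in signal, 11.28 and 11.03 against 9.85 to 10.68, and its part in the Tgm2 values was not tested.

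The remaining Tgm2 probe sets, like the brightest, have the suffix _x_at, which marks probes that can also bind other sequences. Which of the 6 sets reads Tgm2 best was not tested. Probe set 1437277_x_at read 5.54 ± 0.41 in WT and 5.52 ± 0.34 in KO, 1433428_x_at read 4.31 ± 0.26 and 4.33 ± 0.44, and 1438942_x_at read 1.81 ± 0.14 and 1.99 ± 0.15 (SD, n = 5 each). The last lay below all 23 measured genes of other tissues in both groups. In WT, 12 of these read higher than 1417500_a_at, 8 than 1433428_x_at, 4 than 1437277_x_at, 3 than 1426004_a_at and 1 than 1455900_x_at, so most Tgm2 probe sets were not clearly above such levels. The 6 intervals together ran from -0.77 to 0.48.

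**Figure D2:**
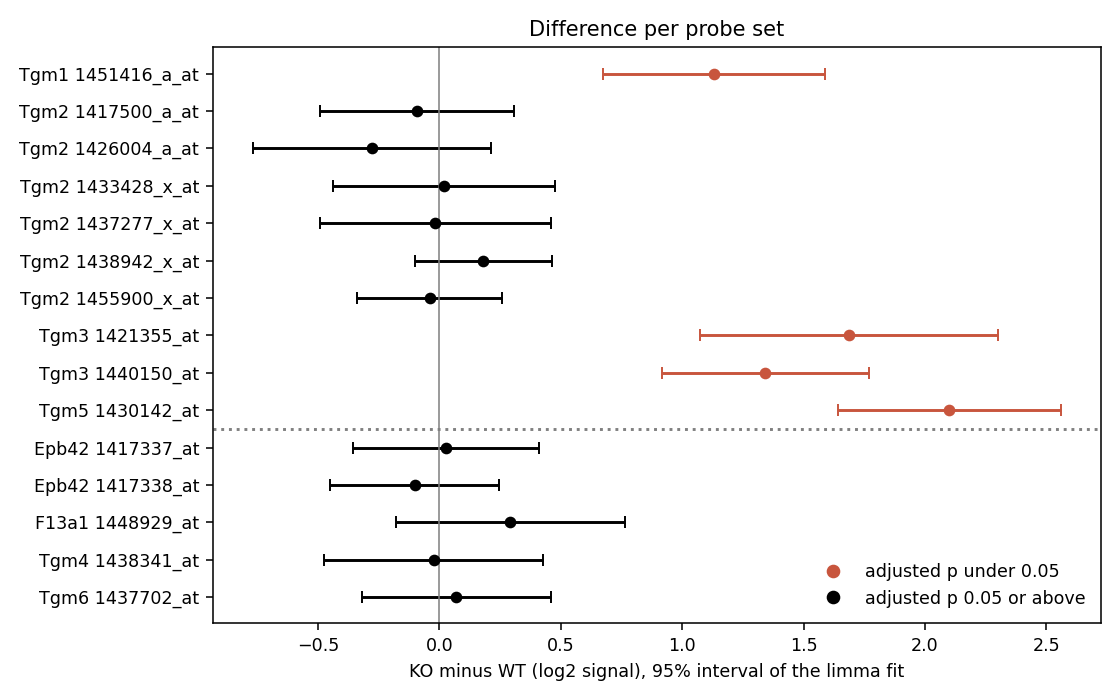
KO minus WT difference in log2 signal for each probe set of the 4 members and, under the dotted line, of 4 other family genes, with 95% intervals of the limma fit over all probe sets (5 arrays a group). The probe sets of Tgm1, Tgm3 and Tgm5 lie right of 0 and are past the adjusted threshold, and the intervals of the 6 Tgm2 probe sets and of the other family genes hold 0.

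Over all probe sets, 1.13% were called higher, 0.142% lower and 1.27% in either direction, and 4 of the 10 member probe sets were, and the KO arrays lay entirely above the WT arrays for 2.28% of all probe sets (entirely below for 0.853%) and for the same 4. Whether members differed from each other in their response was tested on the log2 difference between 2 members within each array, with a two-sided exact permutation test that tries every way to assign the 10 arrays, adjusted over the 6 pairs. Tgm2 changed less than Tgm1 by 1.17, less than Tgm3 by 1.73 and less than Tgm5 by 2.14, with adjusted exact permutation p of 0.0238, 0.0317 and 0.0238. These values take Tgm2 from 1455900_x_at, and with the mean of each gene's probe sets they were 1.17, 1.55 and 2.14 (adjusted exact permutation p = 0.0159 each). The Tgm2 mean averages probe sets that did not follow one another, so it does not show that Tgm2 was read well. Tgm5 changed more than Tgm1 by 0.97 (adjusted exact permutation p = 0.0476), with the WT level of Tgm5 in the range of genes of other tissues and that of Tgm1 above it. The difference between the changes of Tgm3 and Tgm1 was 0.56 (adjusted exact permutation p = 0.270), and that between Tgm5 and Tgm3 was 0.41 (adjusted exact permutation p = 0.270). The pair of Tgm5 and Tgm1 kept its call without 1 of the 10 arrays, WT 3, where it was 1.21, and lost it without each other array, with differences from 0.71 to 1.03. The pair of Tgm3 and Tgm2 lost its call without WT 2, WT 4, WT 5, KO 8, KO 9, KO 10 or KO 21, with differences from 1.50 to 1.80 and an adjusted exact permutation p of 0.0635 in each of these. Leaving out an array raises the smallest p this test can give, from 0.00794 to 0.0159.

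The other measured family genes did not pass the test. Tgm4, the prostate enzyme, read 6.87 ± 0.38 in WT and 6.84 ± 0.32 in KO, and Tgm6, which is known in nerve tissue, 4.34 ± 0.24 and 4.41 ± 0.32. F13a1, encoding the A subunit of clotting factor XIII, read 2.78 ± 0.19 and 3.08 ± 0.49. Epb42, encoding the erythrocyte protein 4.2 that lacks enzyme activity, read 3.81 ± 0.26 and 3.70 ± 0.20 (SD, n = 5 each). Of these 4 genes 0 were called, where 2.65% of all genes were, with differences from -0.10 to 0.29. Tgm7 has no value here. All 4 lay within the range of the genes of other tissues.

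Tgm5 and Tgm3 lie beside other family genes on chromosome 2, which allows a comparison with genes next to them. By gene order in the RefSeq table Tgm5 is flanked by Epb42 and Tgm7, and Tgm6 is the second measured gene after Tgm3. The 3 nearest measured protein-coding genes on each side of each member were read, a choice made after the members' values were seen. Around Tgm1, Tgm2 and Tgm3, 0 of 6 genes each were called, where 2.65% of all genes were, with differences from -0.39 to 0.44. Around Tgm5, 1 of 6 was called, Tmem62, encoding a transmembrane protein, which rose from 5.38 ± 0.33 to 6.23 ± 0.22 (SD, n = 5 each; difference 0.85, limma adjusted p = 0.0215), while Ccndbp1 and Epb42 between it and Tgm5 differed by 0.17 and -0.10. Tmem62 lost its call without WT 3, WT 4, KO 9 or KO 10 (limma adjusted p from 0.0552 to 0.0774).

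**Figure D3:**
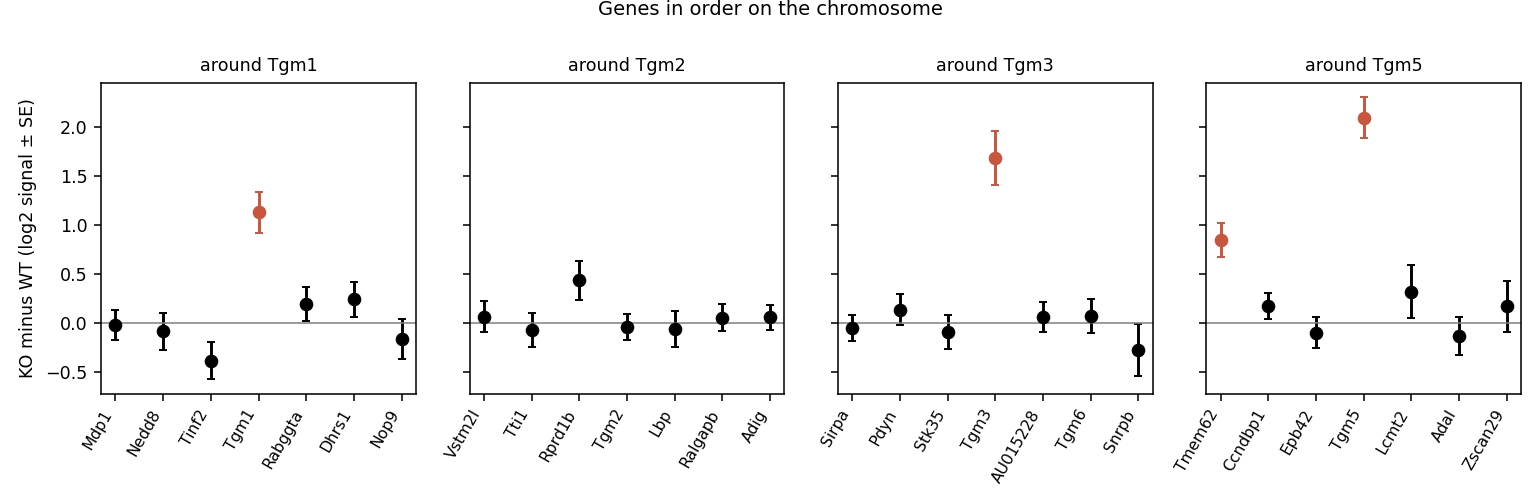
KO minus WT difference (log2 signal ± SE of the limma fit, 5 arrays a group) of Tgm1, Tgm2, Tgm3 and Tgm5 and of the 3 nearest measured genes on each side, in chromosome order and not to distance. Red points passed the adjusted threshold: Tgm1, Tgm3, Tgm5 and Tmem62.

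Transcripts of most proteins that transglutaminases cross-link in the envelope were higher in KO. Of 47 measured envelope genes 35 rose, 0 fell and 12 did not pass, where 2.3% of all genes rose and 0.346% fell. The median difference was 2.0 against -0.01 over all genes. For 34 of the 47 every KO array lay above every WT array, as for 3.36% of all genes. Lce1c, a late cornified envelope gene, went from 3.35 ± 0.95 to 7.54 ± 0.74, and Hrnr, encoding hornerin, from 3.51 ± 0.59 to 7.03 ± 0.20 (log2 signal, SD, n = 5 each). Ivl, encoding involucrin, the first protein that transglutaminase 1 cross-links, went from 8.71 ± 0.41 to 10.41 ± 0.21, and Tchhl1, a trichohyalin-like gene, from 4.72 ± 0.46 to 7.21 ± 0.61. The limma adjusted p of these 4 ran from 6.44e-05 to 0.000548. Dsp, encoding desmoplakin, and S100a10, the brightest members that did not pass, differed by 0.22 and -0.31. Dsp passed when its probe sets were averaged (0.58, limma adjusted p = 0.0419). The count of rises was 27 to 36 without single arrays, 27 without WT 3, WT 4 and KO 23, and 22 without WT 1, WT 2 and KO 8, the arrays with the highest poly-A spike-in signal. With the array number as a covariate 0 rose and the median difference was 0.88. That number is lower on every WT array than on every KO array, so array order and group cannot be told apart. Lce and Sprr genes are near-identical in sequence, so their values may mix family members. The list also counts Sprr2j-ps, a pseudogene by its symbol, among the rises.

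Enzymes of the lipid envelope, the ceramide coat that transglutaminase 1 helps to attach, also rose: 10 of 16 measured were higher and 0 lower, with a median difference of 1.28. Over all genes 2.3% were higher and 0.346% lower. Pnpla1, which makes acylceramide, went from 5.78 ± 0.32 to 7.79 ± 0.26. Sdr9c7, the dehydrogenase of the oxidised linoleate in acylceramide, went from 7.53 ± 0.56 to 10.03 ± 0.28. Acer1, an alkaline ceramidase gene, went from 5.84 ± 0.43 to 8.29 ± 0.51, and Cyp4f39, an omega-hydroxylase of very long fatty acids, from 7.24 ± 0.30 to 8.88 ± 0.33 (log2 signal, SD, n = 5 each). Their limma adjusted p ran from 0.000137 to 0.000513. Psap and Elovl1, the brightest members that did not pass, differed by 0.56 and 0.40. Psap passed without KO 8 (0.68, limma adjusted p = 0.0467).

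Genes of proteases known or thought to cut transglutaminase zymogens, and of their inhibitors, mostly did not pass: of 12, 0 rose and 1 fell, against 2.3% and 0.346% of all genes. The differences ran from -0.65 to 1.30 with a median of 0.21, and under the other settings 0 to 3 of the 12 rose. The 1 was Capn2, encoding a calpain large subunit, from 10.05 ± 0.15 to 9.40 ± 0.27 (SD, n = 5 each; limma adjusted p = 0.0443), and it lost its call without each single array other than KO 8 and KO 23 (limma adjusted p from 0.0578 to 0.146). Ctsl and Ctsd, encoding cathepsins L and D and the brightest not called, differed by 0.61 and 0.27 (limma adjusted p 0.241 and 0.547). The largest difference, 1.30, was that of Cst6 (limma adjusted p = 0.0644). Ctsb differed by 0.77 (limma adjusted p = 0.0835), with every KO array above every WT array, as for 3.36% of all genes.

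No partner of transglutaminase 2 in the matrix or at the cell surface passed. Of 20 measured genes 0 were called, where 2.65% of all genes were, so the count is near that share. The median difference was -0.21, with a range from -1.16 to 0.33. The brightest were the integrin genes Itgb1, at 10.63 ± 0.33 in WT and 10.30 ± 0.09 in KO, and Itgb4, at 10.14 ± 0.23 and 10.27 ± 0.33 (log2 signal, SD, n = 5 each). Without WT 3, WT 4 and KO 23 the median was 0.05, and the fibroblast list, whose 12 genes had a median of -0.38, moved to 0.40.

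Transcription factors known to act on transglutaminase or other late epidermal genes rose in part, 6 of 31 and 0 fell, with a median difference of 0.44. The shares over all genes were 2.3% and 0.346%. Klf4, which drives barrier formation, rose by 0.99, Grhl1, a grainyhead factor, by 1.01, Cebpa, a C/EBP factor, by 1.08 and Hopx, a homeodomain protein of differentiating layers, by 2.0, with limma adjusted p from 0.00343 to 0.00702. Hopx lost its call without WT 3, WT 4 and KO 23 (limma adjusted p = 0.0605). Jund and Fosl2, AP-1 factors and the brightest not called, differed by -0.04 and 0.40. Without KO 10 the count was 4, and 5 to 7 without each other array.

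**Figure D4:**
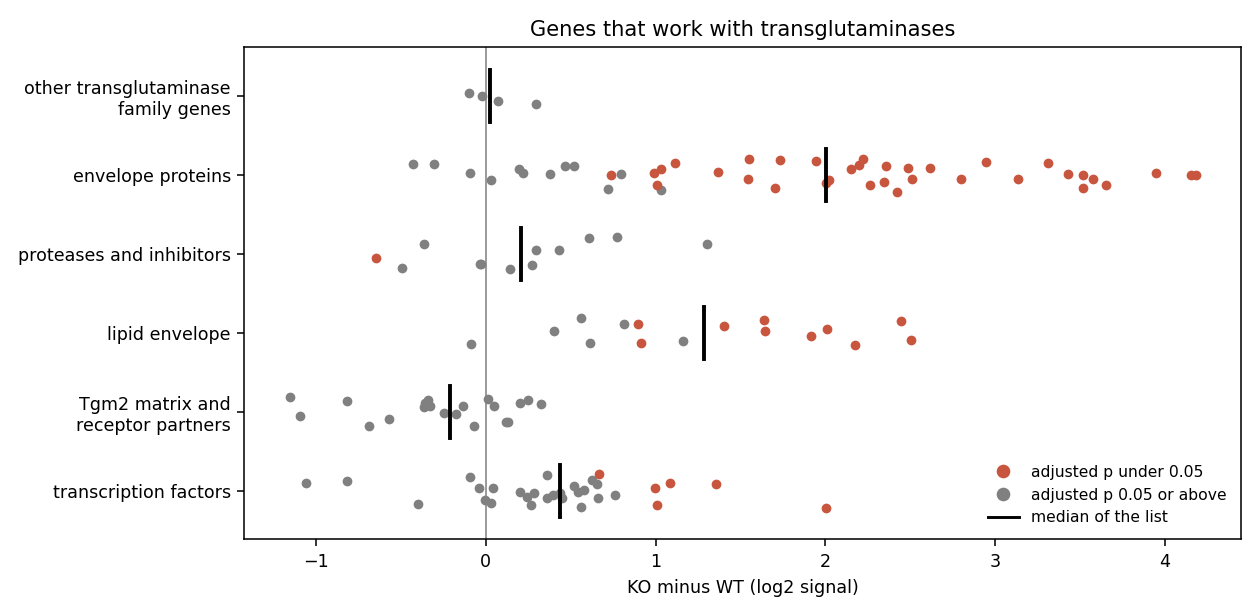
KO minus WT difference (log2 signal) of each measured gene of 6 lists, with red points past the adjusted threshold and a black line at the list's median. The envelope protein and lipid envelope lists have medians of 2.0 and 1.28. The Tgm2 partners and the other family genes have no red point, where 2.65% of all genes passed.

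The genes most like each member over the 10 arrays were taken by Pearson correlation among 8860 genes at or above the median level, as a description that includes the group difference. Nearest to Tgm5 were Sptlc3, a subunit gene of serine palmitoyltransferase, Fchsd1, Slc10a6, a transporter of sulfated steroids, and Galnt6, an O-glycosylation enzyme, each at 0.98, and 0.75 to 0.84 for deviations from the group means. All 4 were called, rising by 1.62, 1.18, 2.18 and 1.70. Nearest to Tgm3 were Pla2g4f, a phospholipase A2 gene (0.97), Plekhn1 (0.97), Ggct, encoding gamma-glutamylcyclotransferase (0.95), and Faah, encoding fatty acid amide hydrolase (0.95), with 0.78 to 0.91 within groups. Of these Pla2g4f, Ggct and Faah rose, by 1.25, 1.62 and 1.55, and Plekhn1 differed by 0.80 (limma adjusted p = 0.0529). Pla2g4f lost its call without WT 4 or KO 10, and Faah without WT 4, KO 9 or KO 10, with limma adjusted p from 0.0506 to 0.0568. Plekhn1 passed without WT 1 (0.93, limma adjusted p = 0.0174) and without KO 23 (0.90, limma adjusted p = 0.0363).

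Nearest to Tgm1 were Ndrg2 (0.95), Tmem62 (0.95), Rnf208 (0.95) and Sdr42e1, a short-chain dehydrogenase gene (0.94), with 0.73 to 0.84 within groups. Ndrg2, Tmem62 and Sdr42e1 rose by 0.78, 0.85 and 0.87, and Rnf208 differed by 0.69 (limma adjusted p = 0.0554). Ndrg2 lost its call without WT 1, WT 3, WT 4, KO 8, KO 9, KO 10 or KO 23 (limma adjusted p from 0.0588 to 0.122), and Rnf208 passed without WT 5 or KO 21 (limma adjusted p 0.0421 and 0.0403). Without WT 3, WT 4 and KO 23, Ndrg2, Tmem62 and Sdr42e1 lost theirs, as Tgm1 did. Nearest to the Tgm2 probe set were Zfp955a (0.94), Glb1l (0.93), Alg1 (0.92) and Pigo (0.90), none called, with differences from -0.22 to -0.02. For deviations from the group means, Tgm1 and Tgm3 had a correlation of -0.17, Tgm1 and Tgm5 -0.21, and Tgm3 and Tgm5 0.16. Tgm2 had 0.05 with Tgm1, -0.70 with Tgm3 and 0.03 with Tgm5. The genes above were picked for a high correlation, so these values cannot be set against theirs.

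Markers of other cell types gave 0 rises among 12 fibroblast, 10 endothelial, 13 macrophage and Langerhans, 8 melanocyte, 9 muscle, 5 T cell and 5 erythroid genes. Over all genes 2.3% rose and 0.346% fell. The 9 muscle genes were each lower on average in KO, with differences from -1.27 to -0.14 and a median of -0.48, and 1 was called. The log2 of their summed signal ran from 10.22 to 10.78 on WT and from 8.80 to 9.94 on KO arrays. Without WT 3, WT 4 and KO 23 their median difference was -0.03. The log2 of the summed signal of the fibroblast genes ran from 11.26 to 14.54 on WT and from 11.15 to 13.30 on KO arrays, with Col1a1 at 10.07 ± 2.09 and 9.79 ± 1.18 and the lowest, Lum, at 2.66 ± 0.18 and 2.54 ± 0.14 (SD, n = 5 each). The 8 melanocyte genes were each higher on average in KO, by 0.26 to 0.91 with a median of 0.69, and none passed. Their mean ran from 6.30 on WT 1 to 9.35 on WT 5 and from 7.62 to 9.18 on KO arrays, and the median was 0.24 without WT 1 and 0.06 without WT 1, WT 2 and KO 8. Under that last setting Tgm1 differed by 1.29. The brightest of each list were Vim, Flt1, Lyz2, Tyrp1, Thy1 and Alas2, which did not pass (differences -0.24, -0.89, -0.58, 0.91, 0.25 and -0.09), and Tnnt2, which fell by 1.27 (limma adjusted p = 0.0195) and lost its call without KO 9 (0.0700) or KO 10 (0.0664). Flt1 passed without KO 23 (-1.03, limma adjusted p = 0.0443). Among genes of other tissues the brightest was Prm1 at 7.25 ± 0.33 in WT and 7.33 ± 0.28 in KO, and in the hair follicle list Sox9 at 9.53 ± 0.29 and 9.49 ± 0.28 (SD, n = 5 each).

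**Figure D5:**
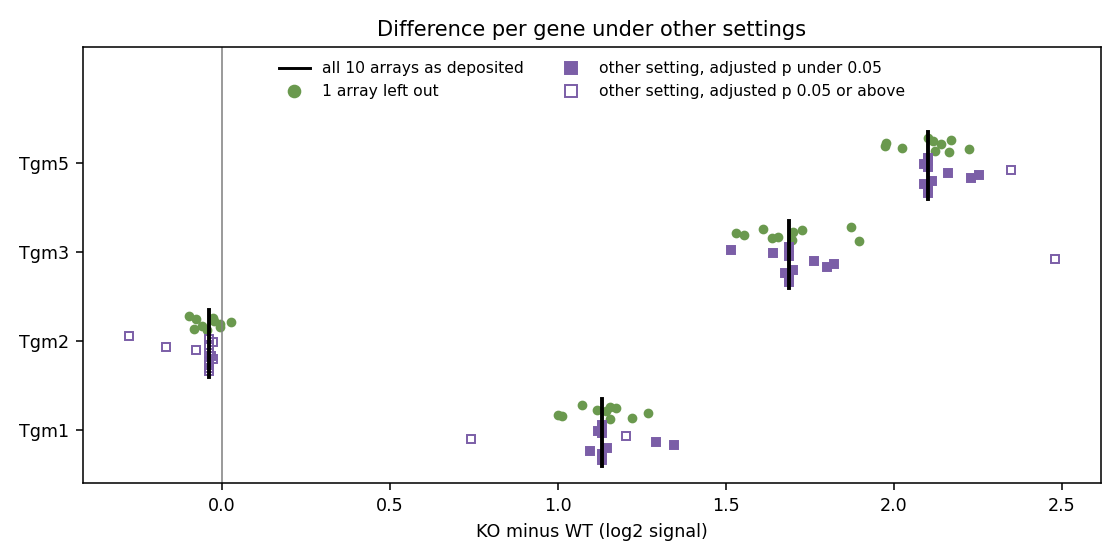
KO minus WT difference (log2 signal) of the 4 genes with all arrays as deposited (black line), with each of the 10 arrays left out (circles) and under the other settings (squares, open where the adjusted p was 0.05 or above). Tgm5, Tgm3 and Tgm1 stay right of 0 at every setting shown, and Tgm2 stays between -0.28 and 0.03.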

How the data were processed

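Total RNA was extracted with Trizol and biotin-labelled cRNA made from 6 µg of it, per the labels' protocols. The deposited values are log2 signals that the authors computed with RMA, 1 value for each probe set on each array (background correction, normalisation between arrays and a summary per probe set), per the submitters' processing notes. Version and settings are not given in the sources used here. RMA makes array distributions alike, so a shift common to most genes would not be seen. No filter or pseudocount was applied, and 0 value columns were left out.

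Samples were grouped by their titles. Of 45101 probe sets, 64 controls were left out, 34945 had 1 gene in the platform annotation, 932 several and 9160 none. The probe set with the highest mean stood for its gene (18193 genes). Differences are KO minus WT from limma 3.58.1 in R 4.3.3 (lmFit, eBayes, two-sided), with Benjamini-Hochberg adjustment over all genes, or over 45037 probe sets where stated, at a threshold of 0.05. SE is the moderated standard error. Single values were tested with a two-sided exact permutation test that tries every way to assign the arrays (smallest p 0.00794). The number of arrays limits the precision. The limma step was tested on simulated data.

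The members, 6 gene lists and 10 marker lists were chosen with earlier results of these data known. Named genes were set by rule: the members, the targeted gene, other family genes, in each list the 4 called genes with the smallest adjusted p and the 2 brightest not called, the brightest gene of each marker list, and the 4 genes most like each member. Named outside it, after their values were seen, were Lum, Col1a1, Tchh, Gata3, Cst6, Ctsb and Sprr2j-ps. So were the inner root sheath keratins and the chromosome neighbours. Alternatives were other variance priors, filters, normalisations, weights, probe set choices and covariates, and arrays left out.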

Additional observations from a re-analysis of the deposited data

Results flagged for a closer look

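Single arrays stood far from the rest of their group in 4 of the 128 groups of 5 values looked at, where chance gives about 1 in 20. The only one among the members was the Tgm3 probe set 1440150_at on KO 23, at 5.77 against 6.57 to 6.67 on the other KO arrays and at most 5.51 in WT. Without KO 23 the difference of the brighter Tgm3 probe set went from 1.69 to 1.87. Ivl read 7.99 on WT 4 against 8.81 to 8.98 on the other WT arrays. Cyp4f39 read 7.75 on WT 3 against 6.99 to 7.21, and Pla2g4f read 6.79 on WT 1 against 5.69 to 5.87 (log2 signal).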

How the results depend on the processing

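Among 24 alternatives, Tgm3 and Tgm5 lost their call in 1, the array number, and Tgm1 in 2. The 24 are not separate checks. They include an unadjusted exact permutation test, and other probe set choices left the values of Tgm1 and Tgm5, with 1 probe set each, unchanged. Leaving out single arrays gave differences from 1.00 to 1.27 for Tgm1, from 1.53 to 1.90 for Tgm3, from 1.97 to 2.22 for Tgm5 and from -0.10 to 0.03 for Tgm2, and 3 or 4 called member probe sets. The array number of the titles runs from 1 to 5 in WT and from 6 to 10 in KO, so array order and group cannot be told apart. With it as a covariate, the differences of Tgm1, Tgm3 and Tgm5 were 1.20, 2.48 and 2.35 (limma adjusted p 0.845, 0.322 and 0.235). Under this setting 0 genes and 0 member probe sets were called, so it cannot show whether a single call holds. Without WT 3, WT 4 and KO 23, chosen after seeing the data, Tgm1 had 0.74 and 3 member probe sets were called, and the pair differences were -0.82 for Tgm2 minus Tgm1, 1.42 for Tgm5 minus Tgm1, 1.84 for Tgm3 minus Tgm2 and 2.24 for Tgm5 minus Tgm2. Without WT 1, WT 2 and KO 8 these were -1.33, 0.96, 1.86 and 2.29. With 7 arrays left the exact permutation test cannot go below 0.0571, so none of these pairs could pass. Leaving out single arrays gave 0.71 to 1.21 for Tgm5 minus Tgm1 and 1.50 to 1.97 for Tgm3 minus Tgm2. Over all genes, 419 were higher and 63 lower, against 877 and 561 with array weights, 545 and 193 with the 3 prime to 5 prime difference as a covariate, 389 and 40 with arrays centred on their median, and 264 to 418 and 13 to 106 without single arrays. With array weights 13 of the 31 transcription factors rose, 3 protease genes rose, and 2 Tgm2 partners fell. Of 54 other named genes, 24 were called, and 0 of these kept the call with the array number as a covariate. For 16 of the 24 that was the only setting that changed the call. Another 22 of the 54 stayed uncalled in every alternative. In 0 of the 54 did a difference change sign where the gene was called with all arrays or in the alternative. Differences of uncalled genes could change sign, as that of Vim did, with values from -1.57 to 0.46. No paired analysis was possible because the groups share no replicate number. The WT signals of Tgm3 and Tgm5 were exceeded by 4 of 23 genes of other tissues, and whether this compresses their folds was not tested.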
